A study of Mus musculus with 8 samples.

Results

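The GM-CSF family receptor subunits followed in mouse testis are 5 genes: Csf2rb and Csf2rb2, which encode beta chains, and Csf2ra, Il3ra and Il4ra, which encode alpha chains. They are 5 of the 55421 genes in the deposited files and were picked by symbol from a list drawn up with results of these libraries in view, among them the levels of the members. Their levels and fitted differences are therefore given as a description, with no test. All 5 passed the filter on low counts that left 26414 genes for testing.

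The data are RNA-seq estimated counts per gene from testis of wild-type (WT) male mice, in 8 libraries, 2 in each of 4 groups. CTRL mice received phosphate buffered saline as vehicle. The other groups received lipopolysaccharide (LPS), an inflammatory component of bacterial outer membranes, by injection into the peritoneum. LPS+DHEA mice were given dehydroepiandrosterone (DHEA), an androgen precursor, 6 h after LPS, and LPS+DHEA+Nb mice were given DHEA together with Nb23-bi, whose nature the labels do not say. No group received LPS followed by vehicle, so the effect of DHEA and that of a later injection cannot be told apart. The sources used here do not give strain, age, doses, the hour of collection, or whether replicates are separate animals. Every SD, SE and p-value thus covers differences between libraries that may be technical.

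Libraries held 61.3 to 64.5 M counts and 30142 to 30626 genes with a count. The labels name testis, while the extraction protocol speaks of islets. The summed level of 4 spermatid markers (Tnp1, Prm1, Prm2 and Acrv1) was 8521 to 10260 CPM (counts scaled to the library total) in every library. Summed Leydig cell markers were 837.9 to 970.1 CPM for CTRL and 676.7 to 699.5 CPM for LPS, and summed peritubular myoid markers were 95.4 to 104.8 and 176.5 to 181.5 CPM. In tissue RNA, fewer cells of a type and less RNA per cell cannot be told apart.

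Receptors for GM-CSF, interleukin-3 and interleukin-5 each join a private alpha chain, which binds the cytokine, to a shared beta chain, which carries the signal through the kinase JAK2 and the factor STAT5. In the mouse the common beta chain is encoded by Csf2rb, and a closely related copy, Csf2rb2, encodes a beta chain that works with the interleukin-3 alpha chain alone. These receptors are best known from myeloid cells, where they support survival, maturation and activation of monocytes, macrophages, neutrophils and eosinophils. Csf2ra encodes the alpha chain for GM-CSF and Il3ra the alpha chain for interleukin-3. Il4ra does not share this beta chain: it encodes the interleukin-4 receptor alpha chain, which pairs with the common gamma chain (Il2rg) or with Il13ra1 and signals through STAT6.

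The beta chain genes are near copies of each other, so their sequences bear on how their counts can be read. On GRCm38, Csf2rb2 lies on chromosome 15 from 78282507 to 78305721 on the minus strand and Csf2rb from 78325752 to 78353847 on the plus strand, 20.03 kb apart. Their coding sequences in 1 GENCODE M21 transcript of each gene (2688 bases for Csf2rb and 2634 for Csf2rb2) aligned over 2628 bases, of which 2503 (95.2%) were identical and 125 differed. The longest identical stretch ran for 242 bases within exon 14. Its first 90 bases are shown because a short read from them fits both genes equally, at chr15:78348577-78348666 (plus strand) in Csf2rb and chr15:78284782-78284871 (minus strand) in Csf2rb2. The capitals mark bases that are the same in both genes.
Csf2rb and Csf2rb2: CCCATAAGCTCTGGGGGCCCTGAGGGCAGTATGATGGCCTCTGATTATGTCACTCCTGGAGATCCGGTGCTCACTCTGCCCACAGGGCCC
The annotated microRNA genes Mir7676-2 and Mir7676-1 lie within these stretches and held 0 to 1 counts in each library. The 90-base coding stretch with most differences lies in exon 4 and is shown because reads from it can be told apart. It holds 16 differing bases, marked by capitals, and lies at chr15:78338897-78338986 (plus strand) in Csf2rb and chr15:78294345-78294434 (minus strand) in Csf2rb2.
Csf2rb: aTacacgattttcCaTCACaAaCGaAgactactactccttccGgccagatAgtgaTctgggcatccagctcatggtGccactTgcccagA
Csf2rb2: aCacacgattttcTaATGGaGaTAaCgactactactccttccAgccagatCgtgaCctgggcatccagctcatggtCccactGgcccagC
Of all 100-base windows in GENCODE transcripts, 4.63% of those of Csf2rb and 6.82% of those of Csf2rb2 occurred unchanged in another gene, in each case the other beta chain. With 50-base windows the shares were 12.3% and 18.9%, some of them in other genes. Csf2ra, Il3ra and Il4ra shared no window of either length with another gene. The sources used here do not say how reads matching several places were counted, so the split of counts between Csf2rb and Csf2rb2 is uncertain, and their sum is given beside each.

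RefSeq promoters (GRCm38.p6), from 250 bases before to 30 bases after the start, were matched for 4 of the 5 members. The promoters of Csf2rb2, whose levels differed most between the groups among these 4, and of Csf2ra, which did not part LPS from CTRL, are shown for comparison. Capitals mark matches to the PU box GAGGAA, a motif of the myeloid factor PU.1, and to the STAT palindrome TTCNNNGAA, each searched on both strands. The window of Csf2rb2 is chr15:78305692-78305971 (minus strand) and that of Csf2ra chr19:61228389-61228668 (minus strand).
Csf2rb2: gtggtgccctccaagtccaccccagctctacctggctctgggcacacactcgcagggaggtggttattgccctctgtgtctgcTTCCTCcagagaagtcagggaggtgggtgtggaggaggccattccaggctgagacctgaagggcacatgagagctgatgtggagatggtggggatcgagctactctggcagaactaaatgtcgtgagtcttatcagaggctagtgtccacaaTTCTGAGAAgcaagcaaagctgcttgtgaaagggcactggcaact
Csf2ra: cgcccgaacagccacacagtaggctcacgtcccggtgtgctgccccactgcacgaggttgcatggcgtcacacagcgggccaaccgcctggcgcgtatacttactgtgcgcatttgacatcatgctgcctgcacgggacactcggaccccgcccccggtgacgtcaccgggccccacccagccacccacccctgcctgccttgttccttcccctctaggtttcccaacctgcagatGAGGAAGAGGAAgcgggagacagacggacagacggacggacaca
Csf2rb2 held 1 PU box, on the opposite strand, with its leftmost base at -167 from the start, and 1 STAT palindrome at -15. Csf2ra held 2 PU boxes, at -14 and -8, and no STAT palindrome. Il3ra and Il4ra held neither. Among 32851 promoter windows of the same length, 26.0% held a PU box and 7.83% a STAT palindrome. The AP-1 motif TGANTCA was in none of the 4 members and in 7.46% of windows. The C/EBP motif TTGCNNAA was in Il3ra alone of the 4, at -134, and in 10.4% of windows, and the NF-kB motif in Il4ra alone, at 21 after the start on the opposite strand, and in 1.54% of windows. No match overlapped another, and the PU boxes of Csf2ra adjoin each other. The RefSeq start used for Il3ra is not the start of any GENCODE transcript of that gene. Its window, chr14:14346245-14346524 (plus strand), lies largely inside the GENCODE span of Il3ra, which begins at 14346275. A match describes letters only and shows no binding.

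Both beta chains were low in CTRL, highest in LPS, intermediate in LPS+DHEA and low again in LPS+DHEA+Nb. Csf2rb stood at 53 and 38 counts in the CTRL libraries, 155 and 216 for LPS, 75 and 88 for LPS+DHEA and 43 and 36 for LPS+DHEA+Nb. In CPM scaled by TMM these were 0.847 and 0.594, 2.44 and 3.46, 1.17 and 1.44, and 0.677 and 0.568. Both LPS libraries lay above all 6 others, both LPS+DHEA libraries lay between them and the rest, and CTRL and LPS+DHEA+Nb overlapped. Group means were 0.721 ± 0.179 CPM (SD, n = 2) in CTRL, 2.95 ± 0.717 for LPS, 1.31 ± 0.188 for LPS+DHEA and 0.622 ± 0.077 for LPS+DHEA+Nb. The fitted log2 fold change of Csf2rb was 2.03 (SE 0.35) for LPS versus CTRL, -1.17 (SE 0.34) for LPS+DHEA versus LPS and -1.07 (SE 0.36) for LPS+DHEA+Nb versus LPS+DHEA. These comparisons share libraries, so their values are not independent of each other. Against CTRL, the log2 difference was 0.86 (SE 0.35) in LPS+DHEA and -0.21 (SE 0.36) in LPS+DHEA+Nb.

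Csf2rb2 showed the same order of groups at higher counts. It stood at 124 and 97 counts for CTRL, 239 and 447 for LPS, 149 and 160 for LPS+DHEA and 114 and 69 for LPS+DHEA+Nb. In CPM these were 1.98 and 1.52, 3.76 and 7.15, 2.33 and 2.62, and 1.79 and 1.09. LPS replicate 2 stood well above the other LPS library, though both exceeded all 6 libraries of the other groups, and CTRL and LPS+DHEA+Nb again overlapped. The log2 fold change was 1.64 (SE 0.35) for LPS versus CTRL, and 1.11 without LPS replicate 2. For LPS+DHEA versus LPS it was -1.14 (SE 0.35), and -0.61 without LPS replicate 2, so that difference depends on that library in size. In LPS+DHEA+Nb versus LPS+DHEA it was -0.78 (SE 0.35), -0.46 without LPS+DHEA+Nb replicate 2 and -1.18 without LPS+DHEA+Nb replicate 1. The value for LPS+DHEA+Nb versus LPS was -1.92 (SE 0.36), beside -2.24 (SE 0.36) for Csf2rb. Against CTRL, Csf2rb2 differed by 0.50 (SE 0.35) in LPS+DHEA and by -0.28 (SE 0.35) in LPS+DHEA+Nb.

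**Figure D1:**
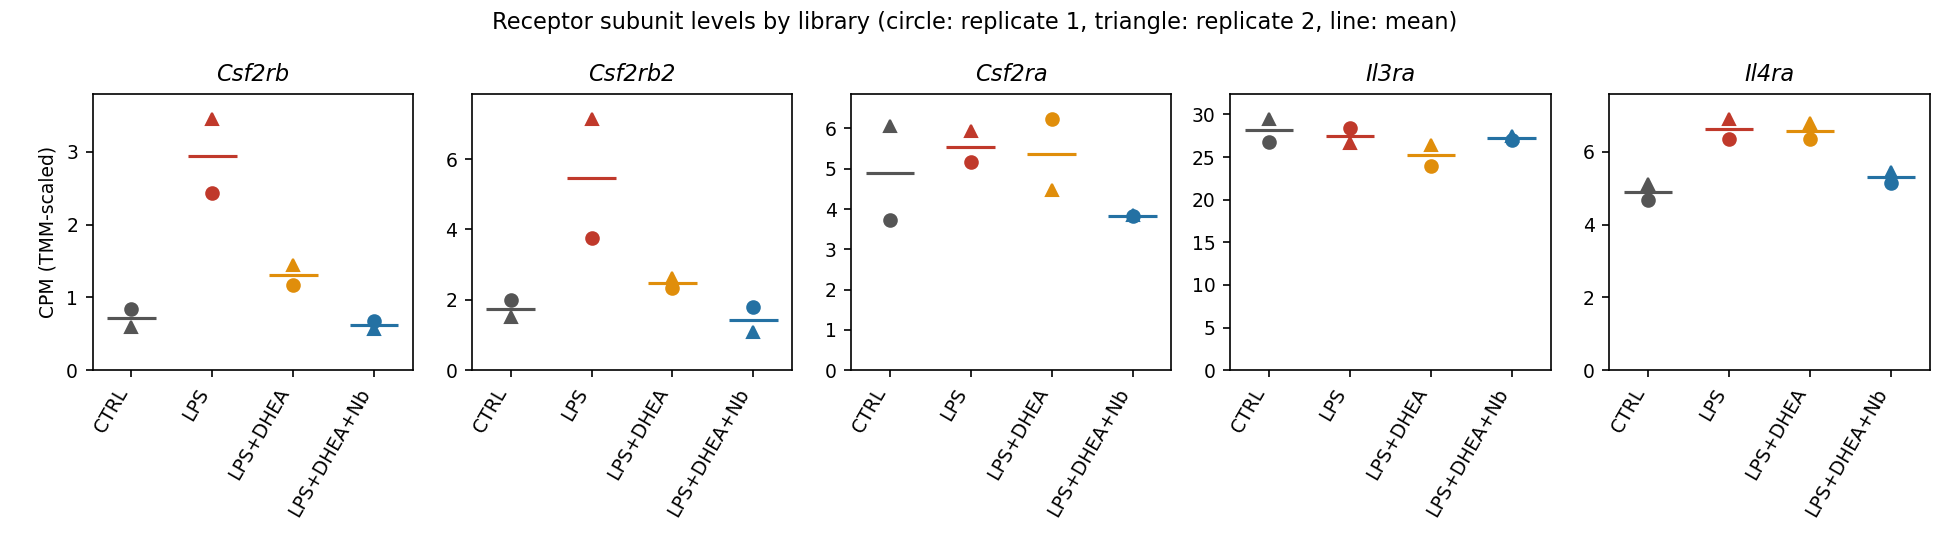
Level of each receptor subunit in CPM scaled by TMM (y axis, from 0, own scale per gene) in the 8 libraries by group. Circles are replicate 1, triangles replicate 2 and lines the mean of 2; Csf2rb and Csf2rb2 are highest in both LPS libraries, while Il3ra lies between 24.0 and 29.5 CPM throughout.

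Summed over both genes, which does not depend on how reads were split between them, the beta chains stood at 2.83 and 2.11 CPM for CTRL, 6.20 and 10.6 for LPS, 3.51 and 4.06 for LPS+DHEA and 2.47 and 1.66 for LPS+DHEA+Nb. Reads left out of the counting because they match both genes would be missing from the sum as well. Reads counted in full for both genes would enter the sum more than once. The sum kept the order seen in each gene. Its fitted log2 fold change was 1.77 (SE 0.30) for LPS versus CTRL, -1.15 (SE 0.30) for LPS+DHEA versus LPS, -0.87 (SE 0.30) for LPS+DHEA+Nb versus LPS+DHEA and -2.02 (SE 0.31) for LPS+DHEA+Nb versus LPS. Csf2rb2 had 1.54 to 2.65 times the counts of Csf2rb in every library. The ratio was 2.34 and 2.55 for CTRL, 1.54 and 2.07 for LPS, 1.99 and 1.82 for LPS+DHEA and 2.65 and 1.92 for LPS+DHEA+Nb. Both LPS ratios lay below both CTRL ratios, but those of LPS overlapped with those of the other LPS-treated groups.

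For the alpha chains of GM-CSF and interleukin-3, LPS and CTRL libraries overlapped. Csf2ra stood at 3.74 and 6.06 CPM for CTRL, 5.16 and 5.93 for LPS, 6.24 and 4.47 for LPS+DHEA and 3.82 and 3.85 for LPS+DHEA+Nb. The CTRL libraries spanned nearly the whole range, so CTRL overlapped with every other group. Both LPS+DHEA+Nb libraries lay below all LPS and LPS+DHEA libraries. The log2 difference of Csf2ra was 0.18 (SE 0.26) for LPS versus CTRL, 0.57 without CTRL replicate 2 and -0.13 without CTRL replicate 1. It was -0.05 (SE 0.26) for LPS+DHEA versus LPS, -0.32 without LPS+DHEA replicate 1 and 0.17 without LPS+DHEA replicate 2. For LPS+DHEA+Nb versus LPS+DHEA it was -0.48 (SE 0.26), -0.22 without LPS+DHEA replicate 1 and -0.70 without LPS+DHEA replicate 2. Against LPS, LPS+DHEA+Nb differed by -0.53 (SE 0.26). Csf2ra lies on chromosome 19 from 61223957 to 61228429 on the minus strand.

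Il3ra was the most abundant member and the steadiest. It stood at 26.8 and 29.5 CPM for CTRL, 28.5 and 26.6 for LPS, 24.0 and 26.5 for LPS+DHEA and 27.0 and 27.4 for LPS+DHEA+Nb. The highest library was 1.23 times the lowest, against 6.08 times for Csf2rb, 6.57 for Csf2rb2, 1.67 for Csf2ra and 1.48 for Il4ra. Both LPS+DHEA libraries were below all others for Il3ra, by small margins, and the remaining groups overlapped. Its log2 differences were -0.03 for LPS versus CTRL, -0.13 for LPS+DHEA versus LPS, 0.11 for LPS+DHEA+Nb versus LPS+DHEA and -0.02 for LPS+DHEA+Nb versus LPS, each with an SE of 0.10. Il3ra lies on chromosome 14 from 14346275 to 14356011 on the plus strand, and the antisense gene Gm48860 overlaps it by 990 bases and held 28 to 99 counts. The library kit marks strand, but the sources used here do not give the strand setting of the counting.

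Il4ra was higher in both LPS and LPS+DHEA than in CTRL and LPS+DHEA+Nb. It stood at 4.67 and 5.11 CPM for CTRL, 6.36 and 6.91 for LPS, 6.34 and 6.79 for LPS+DHEA and 5.13 and 5.46 for LPS+DHEA+Nb. The 4 libraries of LPS and LPS+DHEA overlapped with each other and lay above the 4 of CTRL and LPS+DHEA+Nb, where both LPS+DHEA+Nb libraries were above both CTRL libraries. The log2 difference was 0.44 (SE 0.17) for LPS versus CTRL, -0.02 (SE 0.17) for LPS+DHEA versus LPS and -0.31 (SE 0.17) for LPS+DHEA+Nb versus LPS+DHEA. It was -0.33 (SE 0.17) for LPS+DHEA+Nb versus LPS, and 0.42 (SE 0.17) for LPS+DHEA and 0.11 (SE 0.17) for LPS+DHEA+Nb against CTRL. Il4ra lies on chromosome 7 from 125552120 to 125579474 on the plus strand, and the antisense gene Gm44876 within it held 0 counts.

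**Figure D2:**
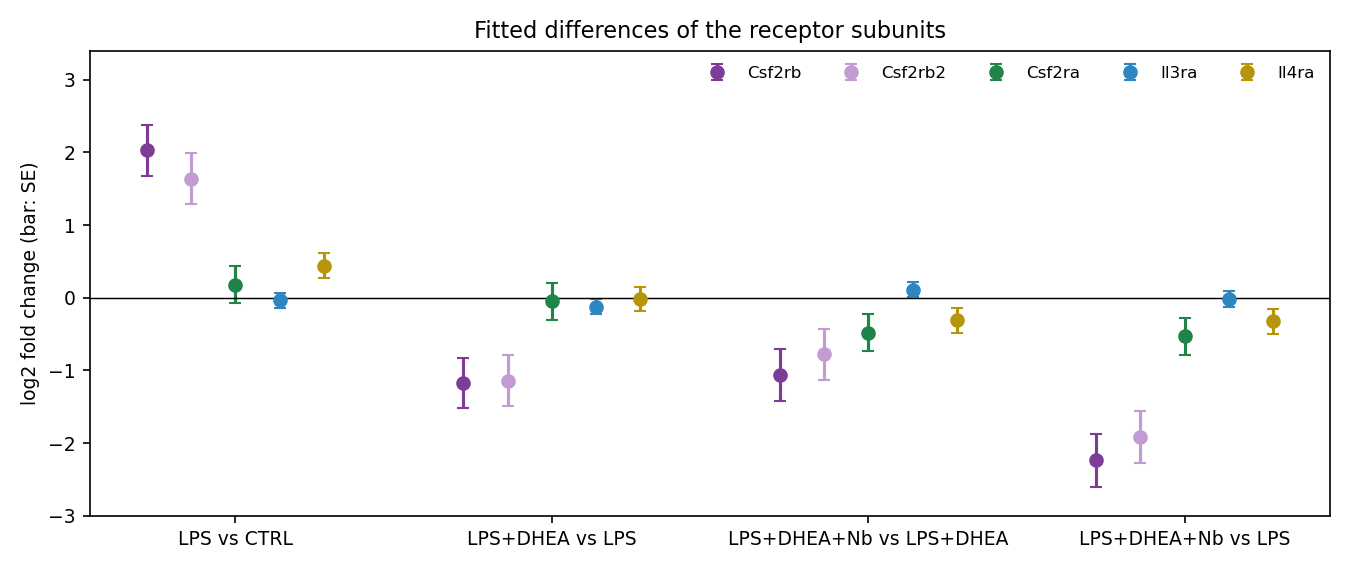
Fitted log2 fold change of the 5 members (y axis) in 4 comparisons (x axis), with bars of the SE from the model over 8 libraries. Csf2rb and Csf2rb2 lie at 2.03 and 1.64 for LPS versus CTRL and at -2.24 and -1.92 for LPS+DHEA+Nb versus LPS; the comparisons share libraries.

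Per kilobase of summed exon length, averaged over the 8 libraries, the order of levels was Il3ra (9.11 CPM per kb), Csf2ra (1.71), Il4ra (0.974), Csf2rb2 (0.587) and Csf2rb (0.192). Il3ra, at 8.09 to 9.95 CPM per kb, lay above Csf2ra in every library, and Csf2ra, at 1.30 to 2.18, above Il4ra, at 0.778 to 1.15. The range of Il4ra overlapped with that of Csf2rb2, at 0.230 to 1.51, since Csf2rb2 exceeded it in LPS replicate 2. Csf2rb spanned 0.0780 to 0.475 CPM per kb. The summed exons of Csf2rb (7277 bases) are longer than its aligned transcript (4764 bases), which lowers its level per kilobase, while those of Csf2rb2 are as long as its aligned transcript (4740 bases).

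Calls rest on an adjusted p under 0.05 in edgeR's quasi-likelihood test. For the members they are given as counts, with the member called by edgeR named and no p-value. For LPS versus CTRL, 78 of 26414 genes (0.295%) were called and 1 member, Csf2rb, was among them; DESeq2 called 2 members (1.11% of all genes), and 3 had an unadjusted p under 0.05 (7.11% of all genes). Both LPS libraries lay above both CTRL libraries for 3 members, against 18.9% of all genes, and below for 0, against 18.1%. Since the members were picked with these values known, nothing is read from these shares or from the call of Csf2rb. The call of Csf2rb ended when any library of CTRL, LPS or LPS+DHEA was left out, in 6 of 8 such fits. The median log2 difference was 0.44 over the members and 0.00 over all genes, as it was over all genes in each of the other comparisons.

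For LPS+DHEA versus LPS, 5 genes (0.0189%) were called and no member, by edgeR or DESeq2 (0.133% of all genes), while 2 members had an unadjusted p under 0.05 (3.51% of all genes). Both libraries lay below for 3 members (15.7% of all genes) and above for 0 (16.1%), and the median was -0.13. For LPS+DHEA+Nb versus LPS+DHEA, 23 genes (0.0871%) were called and no member, by edgeR or DESeq2 (0.439% of all genes), and 1 member had an unadjusted p under 0.05 (4.4% of all genes). Both libraries lay below for 4 members (17.1% of all genes) and above for 1 (15.7%), with a median of -0.48. For LPS+DHEA+Nb versus LPS, 45 genes (0.17%) were called, Csf2rb among them, while DESeq2 called 2 members (0.784% of all genes), and 2 had an unadjusted p under 0.05 (6.56% of all genes). Both libraries lay below for 4 members (18.6% of all genes) and above for 0 (18.1%), with a median of -0.53. This call of Csf2rb ended when LPS replicate 2 or any library of LPS+DHEA or LPS+DHEA+Nb was left out.

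No other tested gene around the beta chain pair was called for LPS versus CTRL, the comparison looked at for these neighbours. Within 100 kb lie 12 other listed genes, of which 7 were tested, and 0 were called by edgeR (0.295% of all genes). An unadjusted p under 0.05 was found for 0 (7.11% of all genes), and 0 were called by DESeq2 (1.11%). The nearest tested on the far side of Csf2rb2 is Ncf4, a subunit of the phagocyte oxidase, at 0.623 to 0.766 CPM for CTRL and 0.882 to 1.01 for LPS (log2 fold change 0.44, SE 0.49, edgeR adjusted p = 0.93). Beyond Csf2rb, Tex33, a testis-expressed gene, stood at 409.9 CPM for CTRL and 423.1 for LPS (log2 fold change 0.05, edgeR adjusted p = 0.981).

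**Figure D3:**
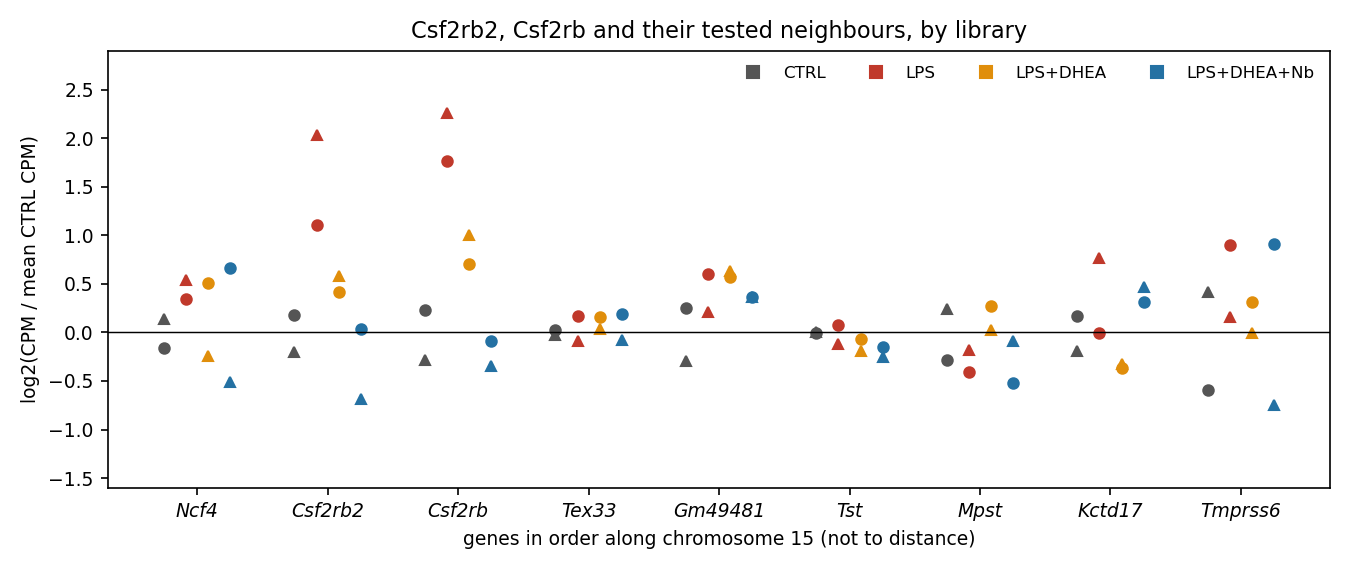
Log2 of the CPM of each library over the mean CPM of CTRL (y axis) for Csf2rb2, Csf2rb and the 7 tested genes within 100 kb, in their order along the chromosome (x axis, not to distance). Circles are replicate 1 and triangles replicate 2; both LPS libraries stand highest for Csf2rb2 and Csf2rb.

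Over the 8 libraries, Csf2rb and Csf2rb2 had a Pearson correlation of 0.97 on the log2(CPM + 0.5) scale. That with Csf2rb was 0.80 for Il4ra, 0.46 for Csf2ra and -0.14 for Il3ra. The points share groups and, for the beta chains, near-identical sequence, and the values are a description. Of 14247 genes with a symbol and a mean of at least 1 CPM, those most like Csf2rb were Cds2 (0.98), an enzyme of phospholipid synthesis, Csf2rb2, Rab3b (0.97), a small GTPase of secretion, Plxnb1 (0.96), a semaphorin receptor, and Lox (0.96), which crosslinks collagen. Those most like Csf2rb2 were Ltbp2, Csf2rb, Cds2, Rest and Naprt, at 0.96 to 0.98. For Csf2ra they were Cand2, Rab29, Tab1, Cisd2 and CAAA01189291.1 (0.96 to 0.99), and for Il3ra they were Glt1d1, Cfap73, Cds1, Gdpd5 and Eno1 (0.94 to 0.96). For Il4ra they were Hsp90ab1, Saa1, Jak1, Decr2 and Sulf1 (0.97 to 0.98). Lox stood at 1.16 CPM for CTRL, 6.20 for LPS, 3.21 for LPS+DHEA and 1.57 for LPS+DHEA+Nb.

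The ligands were scarce. Csf2, which encodes GM-CSF, had 0 counts in all 8 libraries. This allows up to 0.0465 to 0.0490 CPM (3 counts of each total without TMM adjustment, counting error only). Il3 had 0 to 11 counts and Il5, the eosinophil growth factor, 0 to 26, and neither they nor Csf2 passed the filter. Il4 had 15 to 37 counts and Il13, its relative in type 2 immunity, 30 to 111. Both passed the filter, and in none of the 4 comparisons was either called by edgeR, while Il13 had an unadjusted p under 0.05 for LPS+DHEA+Nb versus LPS+DHEA, where it stood at 84 and 111 counts against 51 and 40.

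Among 11 tested partner chains and related receptors, 0 were called for LPS versus CTRL by edgeR (0.295% of all genes). An unadjusted p under 0.05 was found for 3 (7.11% of all genes), and 2 were called by DESeq2 (1.11%). Il5ra, the interleukin-5 alpha chain, had 6 to 54 counts with groups overlapping. Il13ra1, which pairs with Il4ra, stood at 2.22 CPM for CTRL, 3.13 for LPS, 3.03 for LPS+DHEA and 1.69 for LPS+DHEA+Nb (log2 fold change 0.49, SE 0.25, edgeR adjusted p = 0.761 for LPS versus CTRL). Il2rg, the common gamma chain, stood at 46 and 51 counts for CTRL and 38 and 84 for LPS, and the LPS libraries lay on either side of CTRL. Il13ra2, a decoy receptor for interleukin-13, had 0 counts throughout. Ifngr1, the ligand-binding chain for interferon gamma, stood at 5.06 CPM for CTRL, 10.5 for LPS, 11.1 for LPS+DHEA and 5.61 for LPS+DHEA+Nb (log2 fold change 1.06, SE 0.26, edgeR adjusted p = 0.211 for LPS versus CTRL). As for Il4ra, all LPS and LPS+DHEA libraries lay above all CTRL and LPS+DHEA+Nb libraries. Unlike for Il4ra, CTRL (416 and 222 counts) and LPS+DHEA+Nb (378 and 334) overlapped for Ifngr1. Csf1r, the receptor for the macrophage growth factor M-CSF, stood at 741 and 625 counts for CTRL and at 310 and 419 for LPS (log2 fold change -0.90, SE 0.21, edgeR adjusted p = 0.19). DESeq2 called Ifngr1 (adjusted p = 0.00945) and Csf1r (adjusted p = 0.0218), and edgeR called Ifngr1 without CTRL replicate 1 (adjusted p = 0.0204). Csf3r, Il6ra, Il6st, Il10ra, Il10rb and Ifngr2, receptor chains of other cytokines, had log2 fold changes of -0.07 to 0.55.

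Of the 9 JAK and STAT genes, none was called for LPS versus CTRL by edgeR (0.295% of all genes). An unadjusted p under 0.05 was found for 4 (7.11% of all genes). DESeq2 called Stat3 alone (adjusted p = 0.0499), against 1.11% of all genes. Jak2 and Stat5a, which act directly below the beta chains, had log2 fold changes of 0.07 (SE 0.18, edgeR adjusted p = 0.982) and 0.08 (SE 0.23, edgeR adjusted p = 0.987). Stat5b had -0.13 (SE 0.22, edgeR adjusted p = 0.963). For Jak2, both LPS+DHEA+Nb libraries, at 375 and 391 counts, lay below both LPS+DHEA libraries, at 568 and 681 (log2 fold change -0.73, SE 0.18, unadjusted p = 0.00212, edgeR adjusted p = 0.49), a difference that was not called. Jak1, which serves Il4ra, stood at 35.4 CPM for CTRL, 43.2 for LPS, 43.3 for LPS+DHEA and 36.7 for LPS+DHEA+Nb (log2 fold change 0.29, SE 0.09, edgeR adjusted p = 0.394 for LPS versus CTRL). Jak3 had 0.34 (SE 0.14, edgeR adjusted p = 0.629) and Stat3 0.43 (SE 0.10, edgeR adjusted p = 0.203). Stat6, through which Il4ra signals, had 0.49 (SE 0.20, edgeR adjusted p = 0.654) for LPS versus CTRL.

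Downstream of the receptors, the phosphatases Ptpn6 and Ptpn11, a brake and a promoter of cytokine signals, were not called for LPS versus CTRL, with log2 fold changes of 0.73 (SE 0.26, edgeR adjusted p = 0.531) and 0.22 (SE 0.10, edgeR adjusted p = 0.704).

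Of 15 tested targets and feedback genes of STAT5 and STAT6, 1 was called for LPS versus CTRL by edgeR (0.295% of all genes). Socs3, a feedback inhibitor of cytokine receptors that is also a STAT3 target, stood at 80 and 58 counts for CTRL, 297 and 404 for LPS, 234 and 183 for LPS+DHEA and 148 and 100 for LPS+DHEA+Nb. It rose after LPS (log2 fold change 2.35, SE 0.31, edgeR adjusted p = 0.00936), a call that ended without CTRL replicate 2 (adjusted p = 0.074). The groups of Socs3 did not overlap and stood in the order of the beta chain means in the 3 LPS-treated groups. Cish, a feedback inhibitor induced by STAT5, had a log2 fold change of -0.08 (SE 0.29, edgeR adjusted p = 0.988), and Pim1, a STAT5-induced kinase, had -0.04 (SE 0.07, edgeR adjusted p = 0.969). Chil3, a secreted lectin of activated macrophages, had 0.90 (SE 0.44, edgeR adjusted p = 0.744), and Spi1, which encodes PU.1, had 0.76 (SE 0.31, edgeR adjusted p = 0.64). Neither Osm nor Retnla passed the filter.

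Over all 51 pathway genes tested, of 57 listed, 2 rose and 0 fell for LPS versus CTRL by edgeR (0.295% of all genes were called). An unadjusted p under 0.05 was found for 11 (7.11% of all genes), and DESeq2 called 5 (1.11%). The median log2 fold change of the list was 0.08, beside 0.00 over all genes. For LPS+DHEA versus LPS, 0 were called by edgeR (0.0189% of all genes) and 0 by DESeq2 (0.133%). There, 2 had an unadjusted p under 0.05 (3.51% of all genes), with a median of -0.05. For LPS+DHEA+Nb versus LPS+DHEA, 0 were called by edgeR (0.0871% of all genes) and 1 by DESeq2 (0.439%). There, 10 had an unadjusted p under 0.05 (4.4% of all genes), with a median of -0.10. The figures for LPS+DHEA+Nb versus LPS were 0, 1 and 9 (0.17%, 0.784% and 6.56% of all genes), with a median of -0.10. In that comparison Socs3 had a log2 fold change of -1.51 (SE 0.29, edgeR adjusted p = 0.115), and was called without a filter on low counts (adjusted p = 0.0319) and by DESeq2 (adjusted p = 0.00346).

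**Figure D4:**
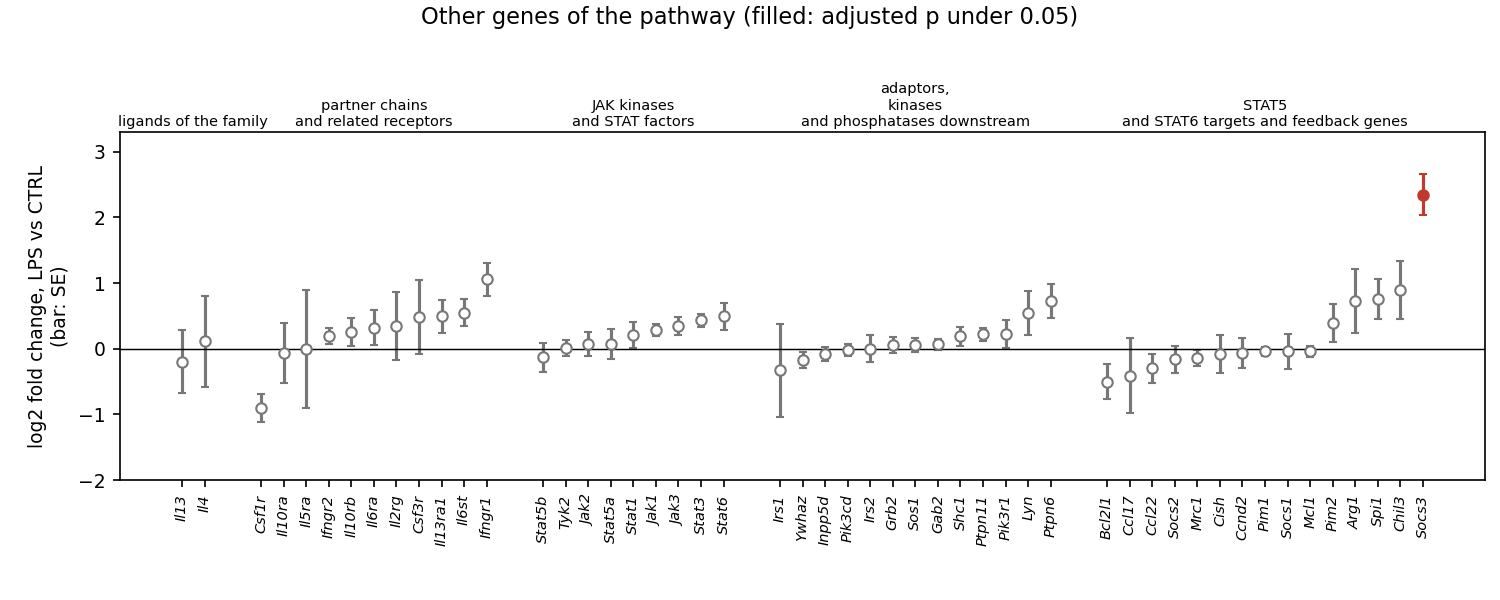
Log2 fold change for LPS versus CTRL (y axis, bars of the SE) of 50 tested pathway genes that are not members, by functional group (x axis). The filled point, Socs3 at 2.35, has an edgeR adjusted p under 0.05.

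Markers of cells that carry these receptors were set beside the beta chains. The 10 neutrophil markers summed to 0.891 to 1.20 CPM for CTRL, 4.80 to 7.87 for LPS, 3.48 to 6.46 for LPS+DHEA and 1.29 to 1.56 for LPS+DHEA+Nb. Both LPS libraries lay above both CTRL libraries for 7 of 10 (18.9% of all genes) and below for 0 (18.1%). S100a8, a calprotectin subunit, had 0 counts in both CTRL libraries, 81 and 49 for LPS, 107 and 34 for LPS+DHEA and 2 and 6 for LPS+DHEA+Nb. Ly6g, a defining neutrophil surface marker, had 0 counts in all libraries except 5 for LPS+DHEA+Nb replicate 1. The neutrophil sum and the beta chain sum were both higher in LPS and LPS+DHEA than in CTRL and LPS+DHEA+Nb. LPS and LPS+DHEA overlapped for the neutrophil sum and did not for the beta chain sum. LPS replicate 1 had the higher neutrophil sum and LPS replicate 2 the higher beta chain sum. A part of neutrophils in the beta chain levels was not tested. The 14 monocyte and macrophage markers summed to 76.9 to 87.5 CPM for CTRL, 86.7 to 86.8 for LPS, 88.1 to 103.4 for LPS+DHEA and 88.9 to 98.7 for LPS+DHEA+Nb. Both LPS libraries lay above both CTRL libraries for 6 of 14 (18.9% of all genes) and below for 4 (18.1%). Itgam, an integrin chain on that list and also found on neutrophils, had 28 and 43 counts for CTRL, 583 and 176 for LPS, 679 and 452 for LPS+DHEA and 67 and 159 for LPS+DHEA+Nb. The 6 above in LPS were Adgre1, Lyz2, Itgam, Marco, Fcgr1 and Cd14, and the 4 below were Csf1r, Cx3cr1, Mrc1 and H2-Aa. Marco had 19 and 14 counts for CTRL and 393 and 264 for LPS, and Cd14 had 123 and 98 against 265 and 249. Cx3cr1 had 180 and 217 counts for CTRL and 86 and 69 for LPS, and H2-Aa had 899 and 177 against 118 and 120.

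The 6 eosinophil markers summed to 0.297 to 1.05 CPM over all libraries, with the groups overlapping. Epx and Ear6 were at 0 in both CTRL libraries and reached at most 5 and 4 counts in any library. Prg2 had 0 to 12 counts, Siglecf 0 to 11 and Ccr3 0 to 8. Dendritic cell markers summed to 15.5 to 18.7 CPM, mostly from Zbtb46 (714 to 818 counts) and Flt3 (249 to 370). Xcr1 had 9 to 28 counts, Itgax 4 to 57 and Clec9a 0 to 4, and Cd209a was at 0 throughout. Of 8 mast cell and basophil markers, Tpsb2, Fcer1a, Ms4a2 and Mcpt8 were at 0 in every library. The list still summed to 41.0 to 48.9 CPM, with Kit at 1130 to 1457 counts and Hdc at 1276 to 1722. Cpa3 had 3 to 27 counts and Mcpt4 0 to 12. Lymphocyte markers summed to 2.52 to 4.79 CPM for CTRL and 2.14 to 2.18 for LPS. Endothelial markers summed to 43.2 to 47.6 CPM for CTRL and 50.5 to 62.1 for LPS. The part of any of these cell types in the beta chain levels was not tested. Csf1r, Csf3r, Mrc1 and Il5ra are on both a marker list and a pathway list.

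**Figure D5:**
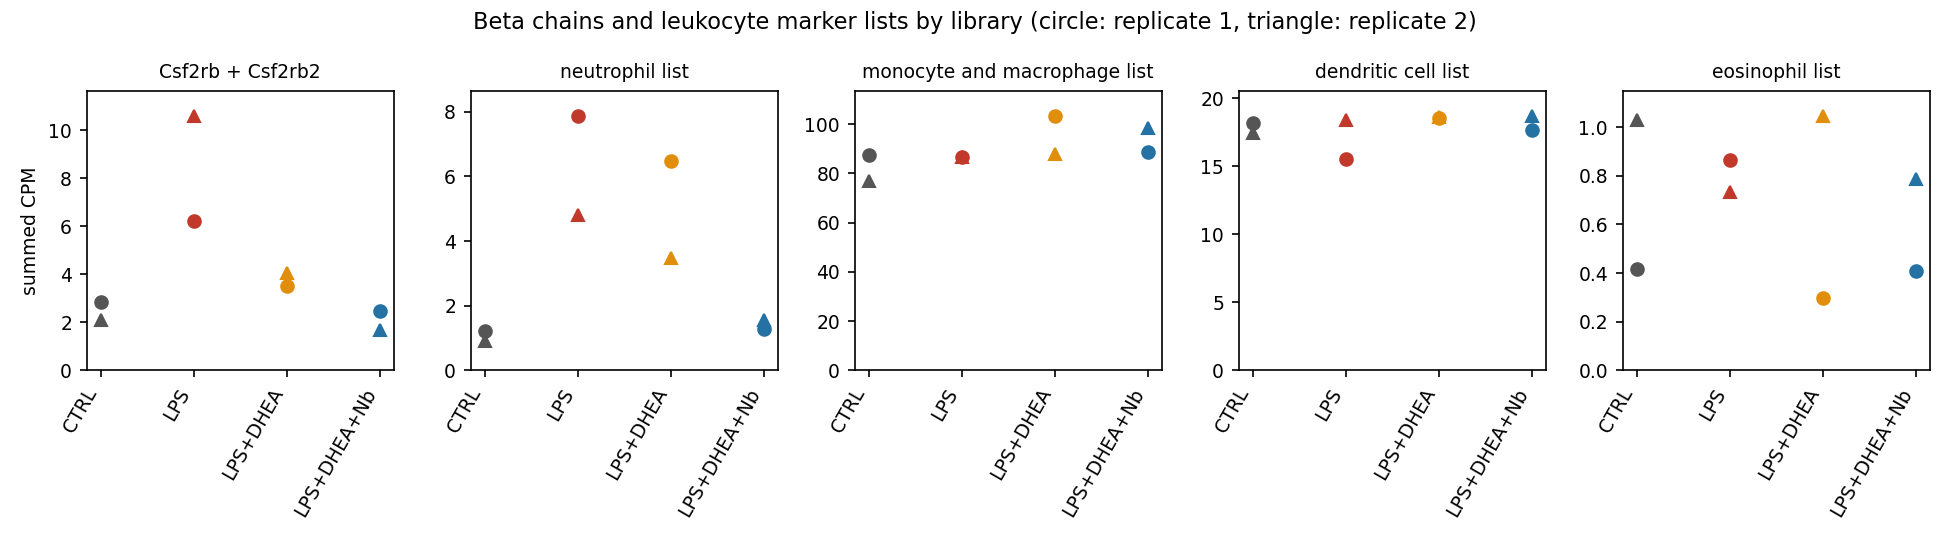
Summed CPM (y axis, from 0, own scale per panel) of Csf2rb with Csf2rb2 and of 4 leukocyte marker lists in the 8 libraries by group; circles are replicate 1 and triangles replicate 2. The beta chain and neutrophil sums are higher in LPS than in CTRL, while the monocyte and macrophage list spans 76.9 to 103.4 CPM.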

How the data were processed

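Estimated counts (expected counts) per Ensembl gene were deposited by the authors in a separate file for each of 8 testis libraries, with no scaling for library size. The unit was read from the values, which are whole but show an excess of multiples of 4 among values from 1 to 40 (33.5%, where 25% would be even), so they were used without rounding in tests for counts. Libraries were made with a stranded kit, per the labels' protocols. HISAT, with no version, featureCounts 1.5.0-p3 and GRCm38 are named, with no role or order, per the submitters' processing notes. The sources used here do not say which strand setting was used or how multiply matching reads were treated.

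Groups come from the titles. In R 4.3.3 with edgeR 4.0.16, filterByExpr (minimum count 10, minimum total count 15) kept 26414 of 55421 genes, libraries of 61.3 to 64.5 M counts were scaled by TMM (factors 0.985 to 1.015), and a robust quasi-likelihood model of 4 group means with 4 residual degrees of freedom was fitted to all libraries. Benjamini-Hochberg adjustment ran over all tested genes, with calls at an adjusted p under 0.05, and the SE is the log2 fold change divided by the square root of F. The common biological coefficient of variation was 0.231. Alternatives were DESeq2 1.42.0, its size factors, no filter, only the groups compared, counts divided by 4, the replicate number as a block, and each library left out. The sum of Csf2rb and Csf2rb2 was added after seeing the data. The steps were tested on simulated data.

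Levels per kilobase use summed exons of GENCODE M21. Coding sequences were aligned with Biopython 1.88. The members, pathway lists and marker lists were chosen with earlier results of these data known. The text names the members, ligands and partner chains, the called genes and up to 3 genes with the smallest p in LPS versus CTRL in each other pathway group, the 5 genes most like each member, and markers. Jak2, Stat5a, Stat5b, Stat6, Cish, Pim1 and the neighbours Ncf4 and Tex33 were added by role or position after their values were seen. The result of 1 pathway gene, which stays in the counts over the list, is not reported here.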

Additional observations from a re-analysis of the deposited data

How the results depend on the processing

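Under 15 alternatives, the log2 fold changes of Csf2rb and Csf2rb2 kept their sign in all 4 comparisons. For LPS versus CTRL they ranged from 1.76 to 2.31 and from 1.11 to 2.03, and for LPS+DHEA+Nb versus LPS from -2.47 to -1.97 and from -2.32 to -1.38. Il4ra kept its sign under 14 alternatives in the comparisons other than LPS+DHEA versus LPS (-0.08 to 0.04). Csf2ra (-0.13 to 0.57) and Il3ra (-0.10 to 0.04) changed sign for LPS versus CTRL under some. Il2rg, at 0.34 for LPS versus CTRL, was at -0.35 without LPS replicate 2, and ranged from -0.35 to 0.81 with a library left out.

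The number of genes called depended on the tool and filter. It was 78 for LPS versus CTRL, 140 without a filter, 293 by DESeq2 and 66 to 118 with a library left out. For LPS+DHEA versus LPS it was 5, then 10 without a filter, 35 by DESeq2, 20 with only the groups compared and 10 to 24 with a library left out. For LPS+DHEA+Nb versus LPS+DHEA it was 23, then 42, 116, 40 and 16 to 64, and for LPS+DHEA+Nb versus LPS it was 45, then 87, 207, 19 and 43 to 88, in the same order. The count moved by over 1.5 times without LPS replicate 1 (118) for LPS versus CTRL, whichever library was left out for LPS+DHEA versus LPS, without CTRL replicate 1 (36) or LPS+DHEA+Nb replicate 1 (64) or 2 (39) for LPS+DHEA+Nb versus LPS+DHEA, and without LPS replicate 1 (74) or LPS+DHEA+Nb replicate 1 (88) for LPS+DHEA+Nb versus LPS. Pathway genes called for LPS versus CTRL were 2, then 5 by DESeq2, 1 with only the groups compared and 0 to 3 with a library left out. DESeq2 called 1 for LPS+DHEA+Nb versus LPS+DHEA, and 1 was called for LPS+DHEA+Nb versus LPS both by DESeq2 and without a filter. The cause was not tested.

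With the replicate number as a block, 62, 5, 16 and 47 genes were called in these comparisons, in the same order, and 2, 0, 0 and 0 pathway genes, and Csf2rb was not among the calls, nor was it with only the groups compared. Same-numbered libraries did not deviate together (correlations of -0.06 to 0.07). This shows no strong shared deviation, but it cannot tell whether the libraries were paired by animal or preparation. With 36 to 216 counts per library for Csf2rb and 2 libraries per group, moderate differences can be missed.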
